A study of Mus musculus with 4 samples.

Results

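Efferocytosis, the clearance of dying cells by phagocytes, was followed through 9 genes that encode its receptors and the soluble molecules that bridge a receptor to a dying cell: *Mertk*, *Axl*, *Tyro3*, *Gas6*, *Pros1*, *Timd4*, *Stab1*, *Mfge8* and *Lrp1*. They are 9 of the 32285 genes counted, were chosen by name, and are described across the myeloid, endothelial and mesenchymal cells of the fracture callus. The data are 4 single-cell RNA sequencing (scRNA-seq) libraries from tibial fracture callus of wild-type C57BL/6J mice that were 3 months old. The control_4d and control_7d libraries came from mice given vehicle, at 4 and 7 days post fracture (dpf), and the RA_4d and RA_7d libraries from mice given K/BxN serum, which brings on an inflammatory arthritis, at the same times. All mice were fractured, and each library was 1 pool of calluses, so no condition had a replicate. The callus was scraped from the periosteal surface and digested with Collagenase P. The paper gives this as a way to limit cells of bone and marrow, so some of these may remain.

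A dying cell turns phosphatidylserine to the outside of its membrane, and phagocytes read this lipid as an "eat-me" signal. TIM-4 (*Timd4*) and stabilin-1 (*Stab1*) bind it directly. The TAM receptor tyrosine kinases TYRO3, AXL and MERTK bind it through GAS6 and protein S (*Pros1*), and integrins bind it through MFG-E8 (*Mfge8*). LRP1 is a large endocytic receptor that also takes part in the uptake of dying cells. In injured tissue such as a fracture callus, macrophages are the best known efferocytic cells, while fibroblasts and endothelial cells are also known to carry several of these molecules.

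Promoter sequences are shown for the 3 receptors whose levels were higher in myeloid than in mesenchymal cells, as the regulatory sequence nearest to that difference. Each is the 250 bases before the RefSeq start of the gene on its own strand, from GRCm38.p6. The capitals mark a GC box, GGGCGG on either strand.
Mertk, chr2:128698665-128698914, plus strand: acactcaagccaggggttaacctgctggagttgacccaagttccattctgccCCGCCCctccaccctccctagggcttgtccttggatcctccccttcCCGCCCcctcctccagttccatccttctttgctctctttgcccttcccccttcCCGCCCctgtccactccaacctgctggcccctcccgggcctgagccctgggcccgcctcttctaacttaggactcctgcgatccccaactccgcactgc
Stab1, chr14:31168642-31168891, minus strand: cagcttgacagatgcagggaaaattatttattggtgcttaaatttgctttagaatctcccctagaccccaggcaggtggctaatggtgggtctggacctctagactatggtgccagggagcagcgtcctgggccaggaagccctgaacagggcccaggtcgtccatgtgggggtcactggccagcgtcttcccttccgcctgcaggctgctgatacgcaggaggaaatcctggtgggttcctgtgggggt
Timd4, chr11:46810549-46810798, plus strand: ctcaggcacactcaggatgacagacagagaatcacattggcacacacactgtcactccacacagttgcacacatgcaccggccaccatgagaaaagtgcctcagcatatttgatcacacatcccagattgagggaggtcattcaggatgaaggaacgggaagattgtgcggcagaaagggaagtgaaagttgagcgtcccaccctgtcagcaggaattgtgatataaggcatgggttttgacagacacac

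A GC box was found in 7 of the 9 promoters, all but those of *Stab1* and *Timd4*, and in 32.7% of 32851 promoters of the same length. The motif was chosen after the sequences had been seen. These matches describe the letters of the windows and say nothing of binding.

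The control libraries kept 5470 cells at 4 dpf and 7676 at 7 dpf, the RA libraries 4110 and 8223, and the kept cells held between 83405494 and 156567619 unique molecular identifiers (UMIs, each 1 captured transcript) per library. Clustering gave 30 clusters, of which 10 were myeloid, 5 endothelial and 8 mesenchymal by lineage markers. The 9 members and 43 other efferocytosis genes were kept out of the genes used for clustering. A cluster is called "-like" where markers of a cell type named it, and otherwise carries genes picked from its leading ones. Over all libraries, *Cd68* stood at 441 CPM (UMIs of the gene per 1000000 UMIs of the same cells) in myeloid, 21.3 in endothelial and 8.47 in mesenchymal cells, *Cdh5* at 7.23, 995 and 3.73, and *Prrx1* at 4.21, 4.84 and 577. Myeloid cells were 61.0% and 57.7% of the cells in control_4d and RA_4d, and 35.0% and 19.4% in control_7d and RA_7d. Mesenchymal cells were 17.8% and 19.5% at 4 dpf, and 41.5% and 48.9% at 7 dpf. Library pairs shared 5 to 15 cell barcodes. A cluster of 262 cells, 55.3% of them called doublets, was set aside.

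Levels are given as CPM of the UMIs summed over the cells of a lineage or cluster in 1 library, and are compared between cell types within a gene, not between genes. Where 4 values stand together, they are those of control_4d, control_7d, RA_4d and RA_7d, in that order. Lineages were compared with edgeR's quasi-likelihood test on 12 sums (3 lineages in each of 4 libraries, with the library as a block). A gene was called at a Benjamini-Hochberg adjusted p under 0.05 and at least a 1.5-fold difference. Such a p measures how constant a lineage difference was over these 4 libraries, and does not take in the choice of clusters. Members were called in 24 of 27 contrasts. Between myeloid and mesenchymal cells, 3 of the 9 were higher and 5 lower in myeloid cells, where 61.8% of 17505 genes were called either way. Between endothelial and mesenchymal cells, 2 were higher and 5 lower in endothelial cells, with 48.1% of genes called. In myeloid against endothelial cells, 6 were higher and 3 lower, with 55.2% of genes called.

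**Figure D1:**
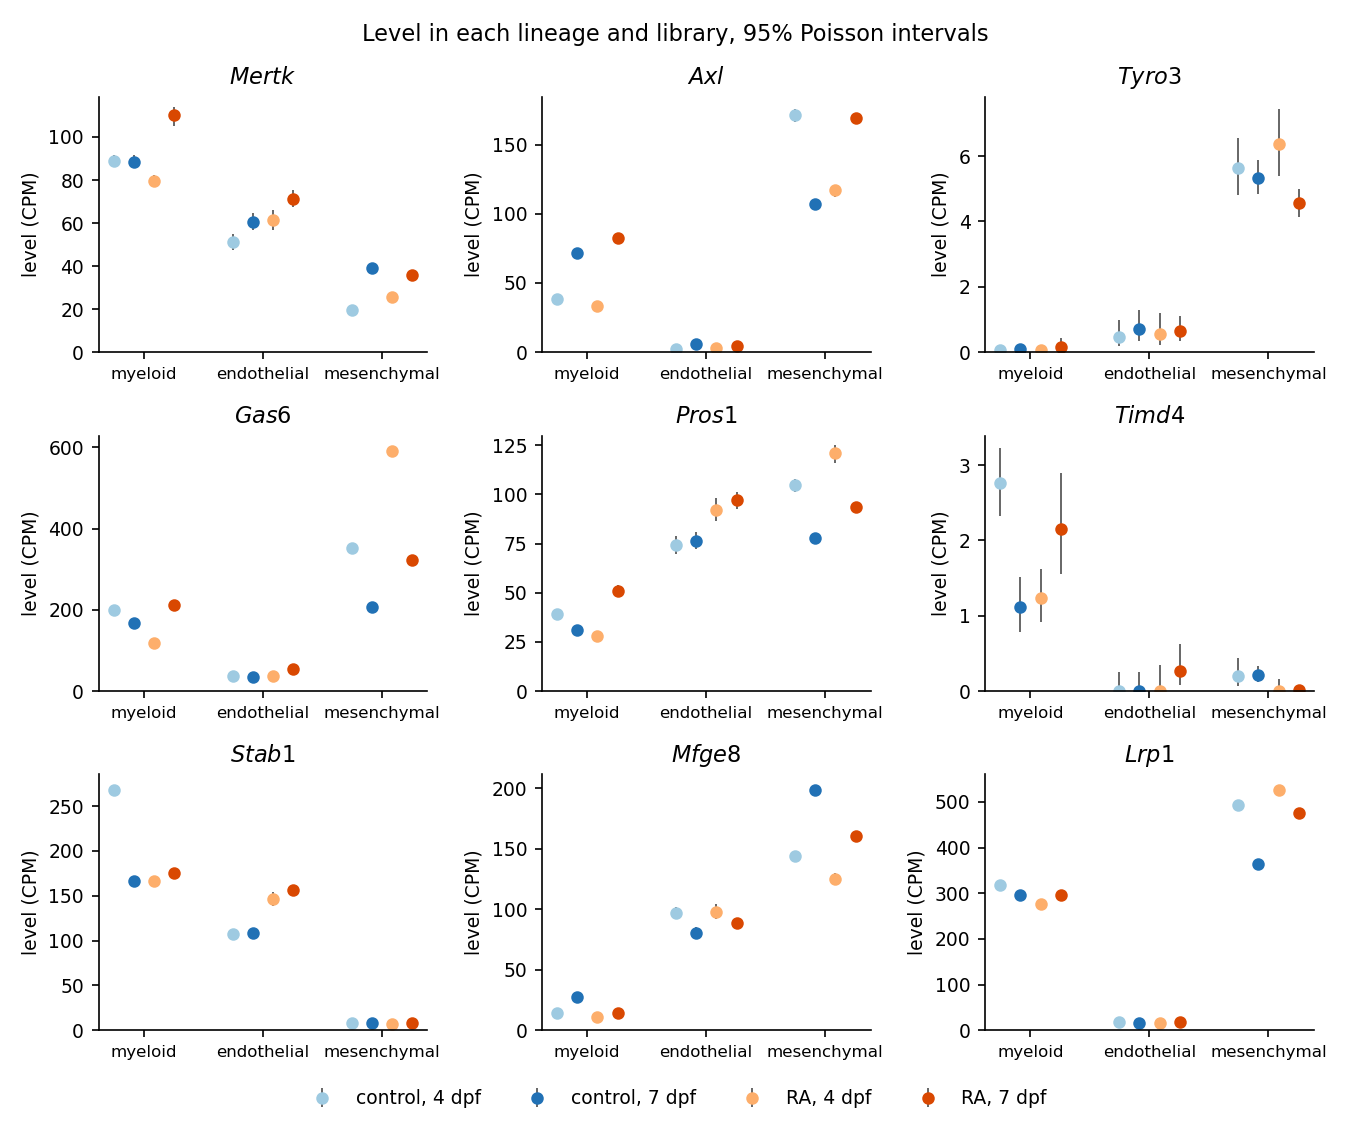
Level of each member (CPM, one panel a gene, vertical axes differing) in the myeloid, endothelial and mesenchymal sums of the 4 libraries, with exact 95% Poisson intervals that cover counting error. *Mertk* and *Stab1* are highest in myeloid sums, *Axl*, *Gas6*, *Mfge8* and *Tyro3* in mesenchymal sums, and *Lrp1* is low in endothelial sums alone, at 15.9 to 18.3 CPM.

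*Mertk*, the TAM receptor best known for clearance by resting macrophages, was highest in myeloid cells in every library. Its myeloid level was 89.0 and 88.6 CPM in control at 4 and 7 dpf, and 79.4 and 110 CPM in RA. Endothelial cells had 51.2, 60.7, 61.4 and 71.4 CPM in the same order, and mesenchymal cells 19.4, 39.3, 25.8 and 36.0. The 3 groups of 4 sums did not overlap. The myeloid level was 1.74 log2 units above the mesenchymal (SE 0.14, adjusted p = 1.72e-06, edgeR's quasi-likelihood test with Benjamini-Hochberg adjustment) and 0.91 above the endothelial (SE 0.14, adjusted p = 0.000197). CPM are scaled by the total of a sum, and edgeR's differences by its TMM factors. In CPM the gap to endothelial cells was smaller, at 89.0 against 61.8 over all libraries. Endothelial exceeded mesenchymal cells by 0.84 (SE 0.14, adjusted p = 0.000444). Within the myeloid lineage the level spread widely. Resident-like macrophages (markers *Mrc1*, *Folr2*, *Lyve1*, *Cbr2*, *Cd163* and *Pf4*) had 157 to 226 CPM over the libraries with at least 50 cells, Arg1-high macrophage-like cells with *Gpnmb* 134 to 152, and MHC class II-high macrophage-like cells with *Apoe* 123 to 142. The range of resident-like macrophages did not overlap that of the next cluster, and among the next 3 clusters neighbours in the order overlapped. Monocyte-like cells lay far below, at 2.59 to 8.90 CPM, and so did the Ccr7 Cd209a myeloid cluster, at 0.429 to 9.75. The second cluster in the order was endothelial. Lymphatic-like cells had 153 CPM in control_7d and 147 in RA_7d, the libraries with enough of these cells. *C1qa*, *C1qb* and *C1qc* served as tracers of macrophage RNA in other cells, and their level there would carry 1.78 CPM of *Mertk* into lymphatic-like cells, against the 152 measured over all libraries. In the lymphoid cluster, the tracers would carry 9.48 CPM, and 9.29 were measured. The source of that level was not tested. Schwann-like cells (71.9 and 108 CPM) and smooth muscle or pericyte-like cells with *Myh11* (78.3 to 114 CPM), which lie outside the 3 lineages, also stood above most clusters. The transcribed region of *Mertk* overlaps Gm23172 on the same strand, and reads of these could not be separated here. On the other strand, Gm14011 overlaps *Mertk*, Tmem255b *Gas6*, Gm16217 *Lrp1* and Nt5dc2 *Stab1*. The effect of these overlaps on the counts was not tested.

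*Axl*, a TAM receptor known to rise with inflammation, had a different map. Mesenchymal cells held 171 and 107 CPM in control at 4 and 7 dpf, and 117 and 169 CPM in RA. Myeloid cells held 38.6, 71.3, 33.1 and 82.2 CPM, and endothelial cells 2.55, 6.18, 2.70 and 4.28. Again the 3 groups did not overlap. Myeloid cells were 1.32 log2 units below mesenchymal cells (log2 difference -1.32, SE 0.27, adjusted p = 0.00122, edgeR's quasi-likelihood test with Benjamini-Hochberg adjustment) and 4.13 above endothelial cells (SE 0.32, adjusted p = 2.15e-06). Pi16 fibroblast precursor-like cells were the highest cluster, at 219 to 344 CPM. Cxcl14 fibroblast-like cells with *Abca8a* followed at 159 to 224, overlapping them at the edge. Among myeloid clusters the order differed from that of *Mertk*. MHC class II-high macrophage-like cells with *Retnla* came first, with 84.3 to 176 CPM of *Axl* and 14 to 33.9 CPM of *Mertk*. Those with *Apoe* were high in both receptors, at 89.0 to 141 CPM of *Axl*. Resident-like macrophages had 17 to 74.7 CPM of *Axl*.

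Shares of single cells, drawn from the same UMIs, showed the same difference between clusters in *Mertk* and *Axl*. Each cell was thinned to 4000 UMIs, so that depth did not set the shares. In resident-like macrophages, 45.8% of 1817 cells had a *Mertk* UMI, 12.3% an *Axl* UMI and 6.11% both, where independence would give 5.65%. In the *Retnla* cluster, 8.49% of 777 cells had *Mertk*, 37.1% *Axl* and 3.86% both, against 3.15%. The *Apoe* cluster was mixed, with 35.9% of 1617 cells, 32.2% and 13%, against 11.6%. Arg1-high macrophage-like cells with *Mmp12* had 15.2% of 1013 cells, 16% and 2.17%, against 2.43%. Those with *Gpnmb* had 40.1% of 2198 cells, 10.7% and 5.19%, against 4.29%. Joint detection over all libraries was above the product of the single shares in 4 of these 5 clusters and below it in 1, and single libraries departed further, with 4.43% against 2.98% in the *Gpnmb* cluster of RA_4d and 3.11% against 5.58% in the *Mmp12* cluster of RA_7d. These departures were not tested.

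**Figure D2:**
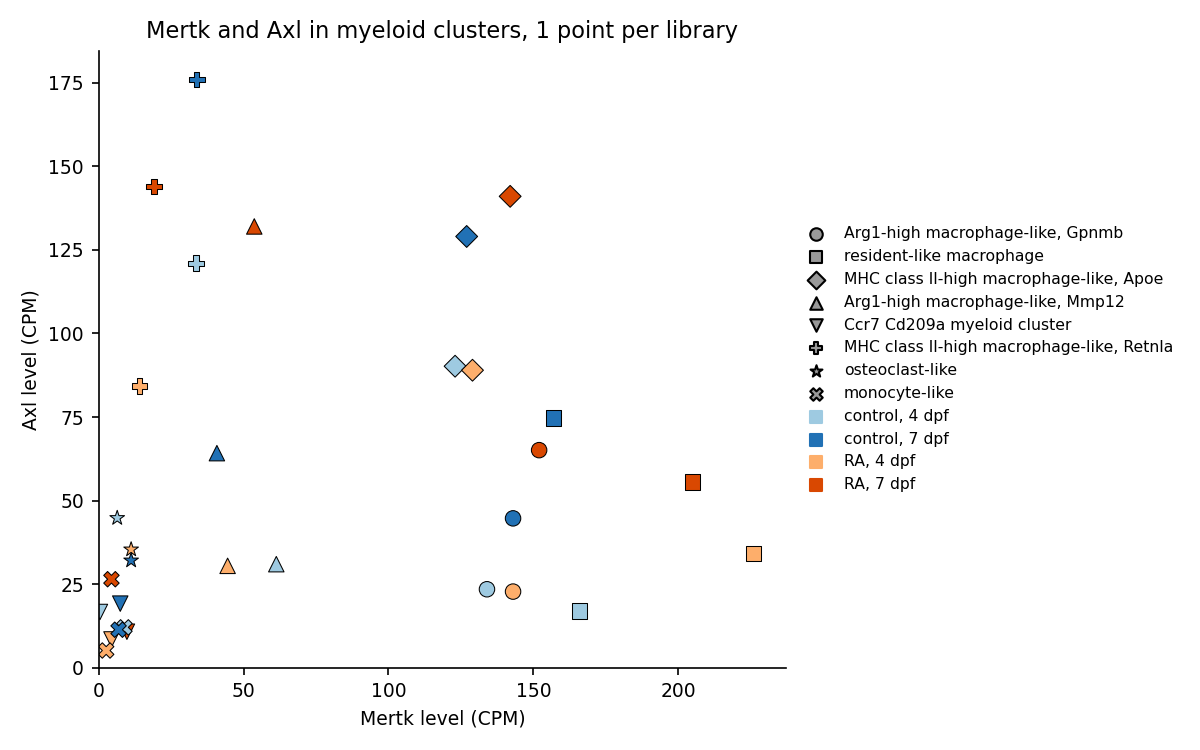
*Axl* against *Mertk* (CPM) in the myeloid clusters other than cycling myeloid and neutrophil-like cells, 1 point a cluster and library with at least 50 cells. Resident-like and Gpnmb macrophage-like points lie at high *Mertk*, the *Retnla* cluster at low *Mertk* (14 to 33.9 CPM) and high *Axl*, and the *Apoe* cluster high in both.

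*Tyro3*, the remaining TAM receptor, was a low transcript of mesenchymal cells. These had 5.64 and 5.34 CPM in control at 4 and 7 dpf, and 6.36 and 4.55 CPM in RA. Endothelial cells had 0.470, 0.695, 0.558 and 0.642 CPM, from 6 to 12 UMIs. Each myeloid sum held 3 UMIs, 0.0551 to 0.15 CPM, with upper 95% Poisson bounds of 0.161 to 0.439 CPM. Myeloid cells stood 5.93 log2 units below mesenchymal cells (log2 difference -5.93, SE 0.26, adjusted p = 3.44e-08, edgeR's quasi-likelihood test with Benjamini-Hochberg adjustment), a value that depends on so few UMIs. The highest clusters were cycling mesenchymal cells (5.93 to 8.98 CPM) and the Sfrp1 Smoc1 mesenchymal cluster (4.59 to 9.84), which overlapped. Schwann-like cells had 6.10 CPM in control_7d and 6.02 in RA_7d.

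*Gas6*, the vitamin K-dependent ligand that binds all 3 TAM receptors, was high in fibroblast-like cells and in 1 macrophage cluster. Mesenchymal cells had 352 and 207 CPM in control at 4 and 7 dpf, and 591 and 323 CPM in RA. Myeloid cells had 200, 168, 119 and 212 CPM, and endothelial cells 36.4, 36.1, 38.2 and 54.7. The mesenchymal sum of control_7d lay below the myeloid sum of RA_7d, but within each library mesenchymal exceeded myeloid cells. The difference was -0.92 log2 units (SE 0.29, adjusted p = 0.0157, edgeR's quasi-likelihood test with Benjamini-Hochberg adjustment). It rested on RA_4d: without that library it was -0.46 and under 1.5-fold. Endothelial cells lay 3.34 log2 units below mesenchymal cells (log2 difference -3.34, SE 0.32, adjusted p = 1.13e-05). Both Cxcl14 fibroblast-like clusters led the order, with 500 to 1171 CPM in that with *Gdf10* and 468 to 1303 in that with *Abca8a*. Resident-like macrophages came next, at 531 to 672 CPM, and overlapped both. They were instead the highest named class at resolution 0.5 (592 CPM), without integration of the libraries (719 CPM) and by share of thinned cells (83.2%). All other myeloid clusters were far lower: 117 to 240 CPM in the Gpnmb and 93.6 to 174 in the *Apoe* cluster, and at most 23.7 in the *Retnla* and Mmp12 clusters. The fibroblast tracers *Col1a1*, *Col3a1* and *Dcn* would bring 2.50 CPM of *Gas6* into resident-like macrophages, against 598 measured. The myeloid cluster with the most *Mertk* was also the one with the most *Gas6*.

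**Figure D3:**
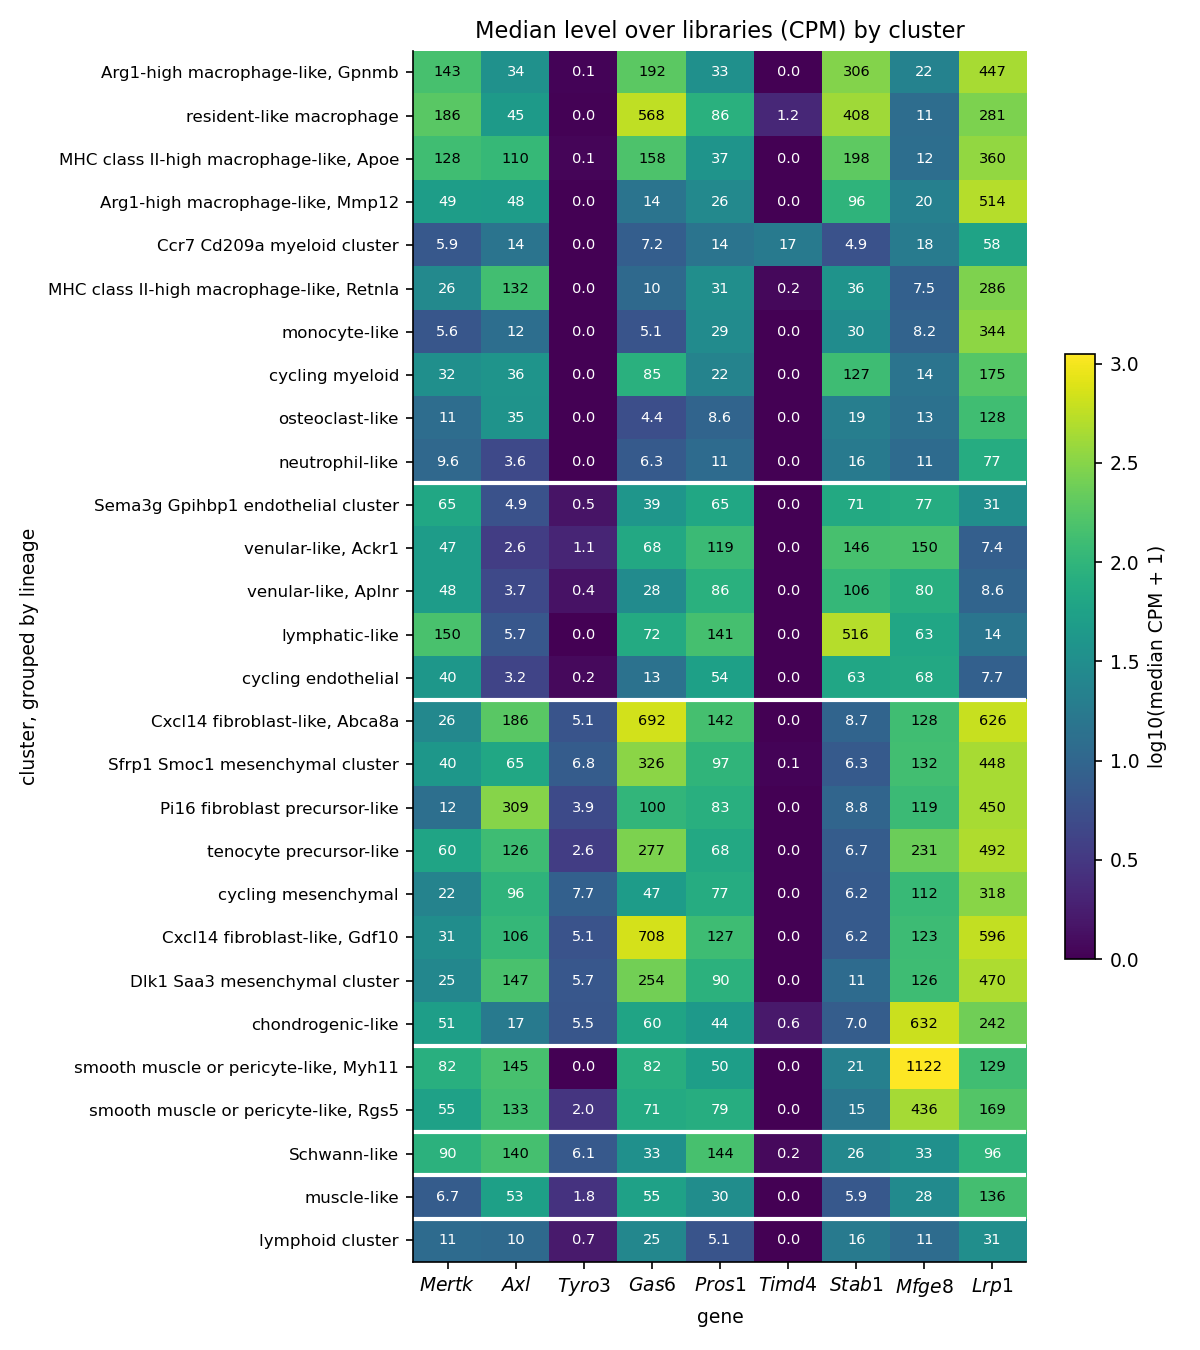
Median level over libraries with at least 50 cells (CPM, log colour scale) of the 9 members in the clusters, grouped by lineage. *Gas6* is high in the 2 Cxcl14 fibroblast-like clusters and resident-like macrophages (medians 708, 692 and 568 CPM), *Mfge8* in smooth muscle or pericyte-like cells with *Myh11* (median 1122), and *Timd4* stands out in the Ccr7 Cd209a myeloid cluster alone (median 17).

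*Pros1*, which encodes the anticoagulant protein S and the second TAM ligand, was found in all 3 lineages. Mesenchymal cells had 105 and 77.9 CPM in control at 4 and 7 dpf, and 121 and 93.4 CPM in RA. Endothelial cells had 74.3, 76.4, 92.1 and 96.9 CPM, and myeloid cells 39.1, 31.2, 28.2 and 50.9. Myeloid cells did not overlap the other lineages and were lower than mesenchymal (log2 difference -1.31, SE 0.17, adjusted p = 6.66e-05, edgeR's quasi-likelihood test with Benjamini-Hochberg adjustment) and endothelial cells (-0.88, SE 0.17, adjusted p = 0.00119). Endothelial and mesenchymal sums overlapped and differed by less than 1.5-fold (log2 difference -0.44, SE 0.17, adjusted p = 0.0438). Schwann-like (116 and 171 CPM), Cxcl14 fibroblast-like with *Abca8a* (117 to 166) and lymphatic-like cells (127 and 155) had the highest levels and overlapped. Among myeloid clusters, resident-like macrophages were again the highest for this ligand, at 54.1 to 104 CPM.

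*Stab1*, a scavenger receptor of macrophages and of sinusoidal and lymphatic endothelium, was shared by the myeloid and endothelial lineages. Myeloid cells had 268 and 167 CPM in control at 4 and 7 dpf, and 167 and 175 CPM in RA. Endothelial cells had 107, 108, 146 and 156 CPM, and mesenchymal cells 7.92, 7.82, 6.36 and 7.94. No endothelial sum reached the lowest myeloid sum. Myeloid cells exceeded mesenchymal cells by 4.78 log2 units (SE 0.20, adjusted p = 3.2e-08, edgeR's quasi-likelihood test with Benjamini-Hochberg adjustment) and endothelial cells by 0.89 (SE 0.18, adjusted p = 0.00124). The second difference shrank to 0.57, under 1.5-fold, when sums were scaled by their totals. By cluster, lymphatic-like cells had 400 CPM in control_7d and 633 in RA_7d, resident-like macrophages 373 to 542, and Arg1-high macrophage-like cells with *Gpnmb* 250 to 416, and these ranges overlapped. The macrophage tracers would carry 3.92 CPM into lymphatic-like cells, where 564 were measured over all libraries. Venular-like endothelial cells with *Ackr1* had 108 to 161 CPM, against 1.24 carried. The lymphoid cluster had 21.8 CPM against 20.9 carried, and the source of that level was not tested. The low mesenchymal levels, 6.33 to 11.2 CPM over the clusters, were 1.47 to 4.99 times what macrophage RNA would carry.

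*Timd4*, the phosphatidylserine receptor used as a marker of long-lived tissue macrophages, was rare. Myeloid cells had 2.76 CPM in control_4d (150 UMIs), 1.11 in control_7d (38 UMIs), 1.23 in RA_4d (52 UMIs) and 2.15 in RA_7d (43 UMIs). Endothelial cells had no UMI in 3 libraries, with upper Poisson bounds of 0.248, 0.256 and 0.343 CPM in control_4d, control_7d and RA_4d. They had 0.267 CPM (5 UMIs) in RA_7d. Mesenchymal cells had at most 0.212 CPM. Myeloid cells were higher than mesenchymal (log2 difference 4.13, SE 0.69, adjusted p = 0.000352, edgeR's quasi-likelihood test with Benjamini-Hochberg adjustment) and endothelial cells (4.72, SE 0.91, adjusted p = 0.00111). Endothelial and mesenchymal cells could not be ordered at this depth (log2 difference -0.59, SE 1.31, adjusted p = 0.706).

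The highest *Timd4* was not in macrophage-like cells but in the Ccr7 Cd209a myeloid cluster, which the naming rule left unnamed. Its best marker score was for mature dendritic cells (3.37), followed by conventional dendritic cells. That name was withheld because the leading genes held more markers of MHC class II-high macrophages, namely *H2-Eb1*, *H2-Ab1*, *H2-Aa* and *Cd74*. The leading genes also included *Ccr7* and *Cd209a*, known from dendritic cells, and *Ifitm1*, *Il1b* and *Klrd1*. This cluster had 25.9 and 18.6 CPM of *Timd4* in control at 4 and 7 dpf, and 15.3 and 13.3 CPM in RA. Resident-like macrophages had 1.45, 0.385, 0.913 and 3.28 CPM. The 2 clusters did not overlap. Of 283 myeloid *Timd4* UMIs over all libraries, 227 were in the Ccr7 Cd209a cluster and 38 in resident-like macrophages. In cells, 70 of 876 of the Ccr7 Cd209a cluster had a *Timd4* UMI (7.99%, median depth 12383 UMIs), 22 of 1817 resident-like macrophages (1.21%, median 13861) and 0 of 2198 Gpnmb macrophage-like cells (median 12302). The lymphoid cluster, which should lack the gene, had 0 of 724 cells at a lower depth (median 7525 UMIs). Within resident-like macrophages, 14 of 219 cells with a *Lyve1* UMI had *Timd4* (6.39%, exact 95% interval 3.54 to 10.5%), and 8 of 1598 cells without (0.501%, 0.216 to 0.984%). The share was higher with *Lyve1* in each library, but from few cells. It was 3.33% (4 of 120 cells) against 0.605% in control_4d and 8.33% (2 of 24) against 0% in control_7d. In RA_4d it was 4.88% (2 of 41) against 0.852%, and in RA_7d 17.6% (6 of 34) against 0.61%. The exact 95% intervals overlapped in control_4d (0.916 to 8.31% and 0.125 to 1.76%) and in RA_4d (0.596 to 16.5% and 0.176 to 2.47%). Cells with *Lyve1* were also deeper, with a median of 17828 UMIs against 13424, and the part of depth was not tested. *Lyve1* was chosen as partner after its values were seen. For *Folr2*, 22 of 1557 cells with a UMI had *Timd4* and 0 of 260 without, and for *Ccr2*, 1 of 543 with and 21 of 1274 without. Within the Ccr7 Cd209a cluster, 9.43% of cells with a *Ccr7* UMI and 7.17% of those without had *Timd4*, with overlapping intervals (6.46 to 13.2% and 5.17 to 9.63%). For *Cd209a* the shares were 6.15% with and 9.27% without, again with overlapping intervals (3.89 to 9.16% and 6.91 to 12.1%). The share with *Cd209a* was the lower in each library, from 2 to 14 cells with *Timd4*. Cells with *Cd209a* were also shallower, with a median of 11902 UMIs against 13008, and the part of depth was not tested.

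**Figure D4:**
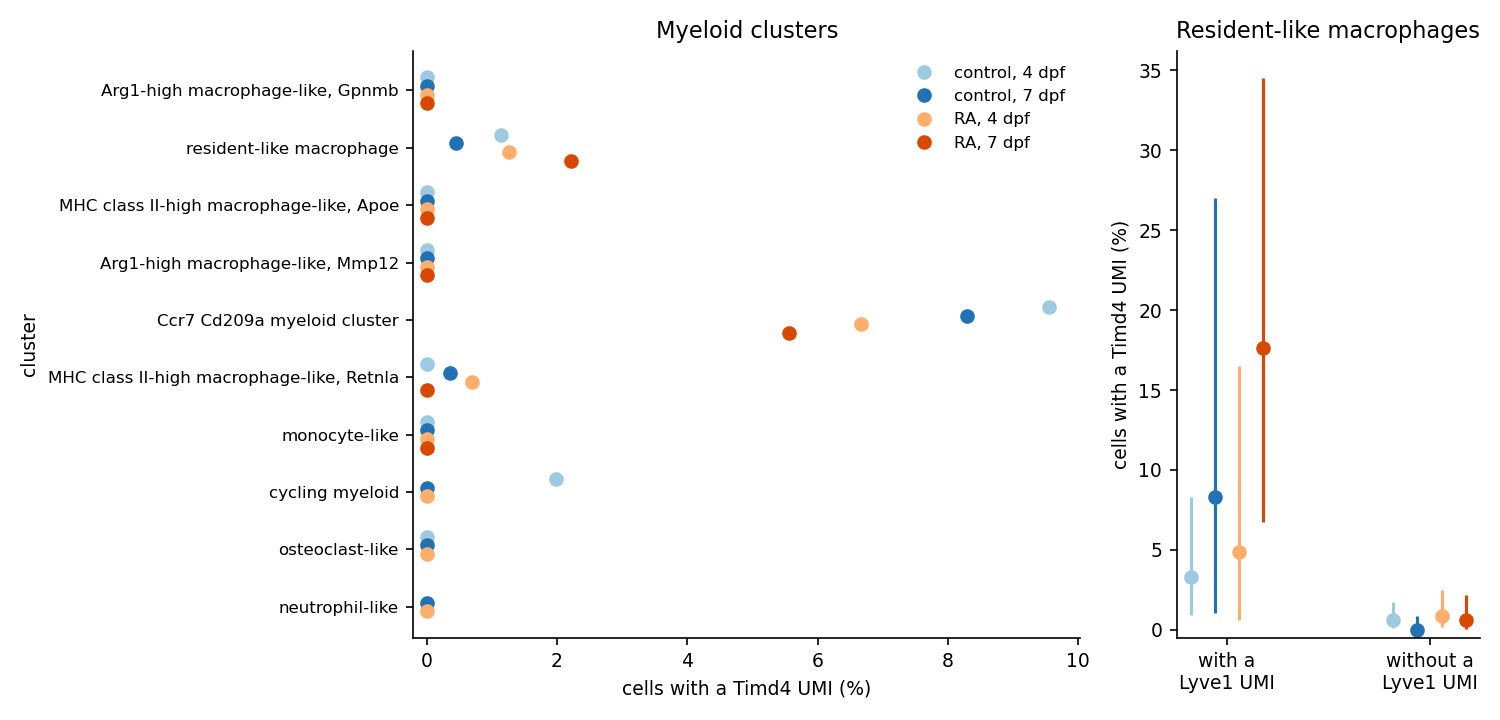
Percent of cells with at least 1 *Timd4* UMI in myeloid clusters, and in resident-like macrophages with or without a *Lyve1* UMI, with exact 95% binomial intervals that cover counting error. The Ccr7 Cd209a cluster (7.99%) and *Lyve1*-positive resident-like macrophages (6.39%) stand above the others.

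*Mfge8*, which bridges phosphatidylserine to integrins, was low in myeloid cells. These had 14.5 and 27.3 CPM in control at 4 and 7 dpf, and 11.3 and 14.3 CPM in RA. Endothelial cells had 96.6, 80.4, 97.7 and 88.8 CPM, and mesenchymal cells 144, 199, 125 and 161. The 3 groups did not overlap. Myeloid cells were below mesenchymal cells by -3.15 log2 units (SE 0.23, adjusted p = 8.94e-07, edgeR's quasi-likelihood test with Benjamini-Hochberg adjustment), and endothelial cells by -0.96 (SE 0.21, adjusted p = 0.00272). The highest levels lay outside the 3 lineages, in smooth muscle or pericyte-like cells with *Myh11* (996 to 1191 CPM). Chondrogenic-like cells followed, with 627 CPM in control_7d and 636 in RA_7d, then smooth muscle or pericyte-like cells with *Rgs5* (492 and 379) and tenocyte precursor-like cells (218 to 260). None of these neighbours in the order overlapped.

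*Lrp1* was high in mesenchymal and, somewhat lower, in myeloid cells, and set apart the endothelium. Mesenchymal cells had 494 and 365 CPM in control at 4 and 7 dpf, and 525 and 476 CPM in RA. Myeloid cells had 318, 295, 277 and 296 CPM, and endothelial cells 18.3, 16.5, 15.9 and 17.4. Endothelial cells lay 4.98 log2 units under mesenchymal cells (log2 difference -4.98, SE 0.12, adjusted p = 8.53e-09, edgeR's quasi-likelihood test with Benjamini-Hochberg adjustment), and myeloid cells exceeded endothelial cells by 4.44 (SE 0.12, adjusted p = 4.91e-09). Myeloid sums all lay below mesenchymal sums, but the difference was less than 1.5-fold (log2 difference -0.54, SE 0.10, adjusted p = 0.000771). It passed 1.5-fold when sums were scaled by their totals or when control_7d was left out. Cxcl14 fibroblast-like cells with *Abca8a* (489 to 637 CPM) and with *Gdf10* (455 to 629), Arg1-high macrophage-like cells with *Mmp12* (462 to 538) and tenocyte precursor-like cells (430 to 628) overlapped at the top. Monocyte-like cells already had 311 to 352 CPM of *Lrp1*, where their *Mertk* was at most 8.90 CPM. Among endothelial clusters the Sema3g Gpihbp1 cluster was the highest for *Lrp1*, at 30.0 CPM. Macrophage RNA would carry 19.7 CPM into it and the fibroblast tracers 3.42. Doublets were 8.26% of that cluster, and their part in this level was not tested. Venular-like cells with *Ackr1* had 7.74 CPM, where the carried amounts would be 1.69 and 5.22.

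Of 52 genes listed for efferocytosis, members included, 50 were tested. Of these, 33 were higher and 8 lower in myeloid than in mesenchymal cells, where 26.4% of all genes were higher and 61.8% called either way. Their median log2 difference was 1.75 and that over all genes -0.10. In myeloid against endothelial cells the counts were 31 and 9, with 25.5% of all genes higher and 55.2% called, and a median of 1.33 against -0.01. In endothelial against mesenchymal cells they were 26 and 11, with 21.7% higher and 48.1% called, and 0.75 against -0.04. The last count fell from 26 to 18 when doublets were left out. Counts of a group that was higher in myeloid than in mesenchymal cells stand beside the same 26.4% of all genes. Of 5 bridging molecules and opsonins other than members, 4 were higher. *C1qa*, *C1qb* and *C1qc*, the chains of complement C1q, stood at 1609, 1694 and 996 CPM in myeloid and 26.5, 27.8 and 16.7 in mesenchymal cells. Of 7 scavenger receptors, integrins and lipoprotein receptors, 5 were higher. Among them were the lipid scavenger receptor *Cd36* at 546 against 9.66 CPM, *Msr1* at 142 against 1.80, and *Trem2*, a lipid-sensing receptor of macrophages, at 387 against 7.14. *Cd36* was also high in endothelial cells, at 472 CPM, and did not pass 1.5-fold between these and myeloid cells (log2 difference 0.57). Of the cholesterol efflux genes and nuclear receptors, which handle the lipid of engulfed cells, 7 of 7 were higher in myeloid than in mesenchymal cells. They included the cholesterol exporter *Abcg1* (132 against 7.92 CPM), the mitochondrial carrier *Ucp2* (517 against 12.1) and the nuclear receptor *Pparg* (62.4 against 4.86).

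The other groups were more mixed. The phosphatidylserine receptors *Havcr2* and *Cd300lf* stood at 45.9 and 23.8 CPM in myeloid and 1.02 and 0.312 in mesenchymal cells, while *Stab2*, a relative of *Stab1*, stood at 5.86 CPM in endothelial (1.21 to 17.4 over the libraries) and 1.19 in myeloid cells (1.02 to 1.40). The *Stab2* ranges overlapped, and its call (log2 difference -1.77, adjusted p = 0.0217) was lost without RA_4d (-0.85, adjusted p = 0.0941) and without control_7d (adjusted p = 0.0786). Of 4 receptors for "find-me" signals, 3 were higher in myeloid than in mesenchymal cells, with the nucleotide receptor *P2ry6* at 75.3 against 1.56 CPM and the fractalkine receptor *Cx3cr1* at 80.5 against 8.98. *S1pr1*, a sphingosine 1-phosphate receptor, was endothelial, at 327 CPM against 20.9 in myeloid cells. *Sirpa*, which reads the "do-not-eat-me" signal CD47, had 532 CPM in myeloid and 64.3 in mesenchymal cells, and *Cd24a* 54.9 and 20, while the "eat-me" protein calreticulin (*Calr*) had 527 and 748 CPM and was not called. The engulfment adaptors split. *Tyrobp* stood at 1721 CPM in myeloid and 25.7 in mesenchymal cells, *Gulp1* at 1.54 and 164, and *Elmo1* at 323 in myeloid, 453 in endothelial and 106 in mesenchymal cells. Of 5 genes of receptor shedding and the phagosome, 4 were higher in myeloid than in mesenchymal cells, with the oxidase subunit *Cybb* at 444 against 7.18 CPM, *Lamp1* at 869 against 289 and *Adam10* at 105 against 66.7.

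Systemic inflammation was compared with control at each time in the sums of each lineage. With 1 library a condition there was no test. A ratio is that of 2 pools, its exact interval covers counting error only, and a difference between pools, mice or preparations cannot be told apart from one between conditions. At 4 dpf, 3 of 8 members with at least 50 UMIs were past 1.5-fold in myeloid cells (11.8% of all genes), 0 of 7 in endothelial cells (6.94%) and 1 of 8 in mesenchymal cells (11.8%). At 7 dpf the counts were 3 of 8 (11.6%), 1 of 7 (10.9%) and 2 of 8 (17.6%). When the clusters of a lineage were weighted equally in place of summed, only 1 of these 10 ratios stayed past 1.5-fold, that of *Gas6* in mesenchymal cells at 4 dpf, at 1.74.

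*Gas6* at 4 dpf differed in opposite directions in the mesenchymal and myeloid lineages. In mesenchymal cells it was 591 CPM in RA_4d and 352 in control_4d, a ratio of 1.68 (1.64 to 1.72). All 7 mesenchymal clusters with enough cells were above 1 and 6 were past 1.5-fold, with ratios from 1.13 in tenocyte precursor-like to 3.43 in Pi16 fibroblast precursor-like cells, the latter 385 against 112 CPM. Across all clusters of this comparison 15.2% of 7248 genes went 1 way. With cluster levels held equal the change in cluster shares alone gave a ratio of 1.00, and with equal shares the levels gave 1.67. In myeloid cells *Gas6* was 119 CPM in RA_4d and 200 in control_4d, a ratio of 0.593 (0.573 to 0.613). It was below 1 in 6 of 6 clusters with enough UMIs and past 1.5-fold in 4 of them (0.488 to 0.792). Of 5766 genes scored in all 9 myeloid clusters, 8.32% went 1 way in all 9, which is harder to meet than in 6. Here both parts moved: shares alone gave 0.816 and levels alone 0.727. In resident-like macrophages, its main myeloid source, the ratio was 0.792 (532 against 672 CPM). Of all *Gas6* UMIs of a library, myeloid cells held 48.5% in control_4d and 25.3% in RA_4d, and mesenchymal cells 46.7% and 71.1%. At 7 dpf the mesenchymal ratio was 1.56 (1.53 to 1.59), but the clusters spread from 0.829 to 2.61, with 2 of 8 past 1.5-fold. The endothelial ratio at 7 dpf was 1.52 (1.36 to 1.69).

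**Figure D5:**
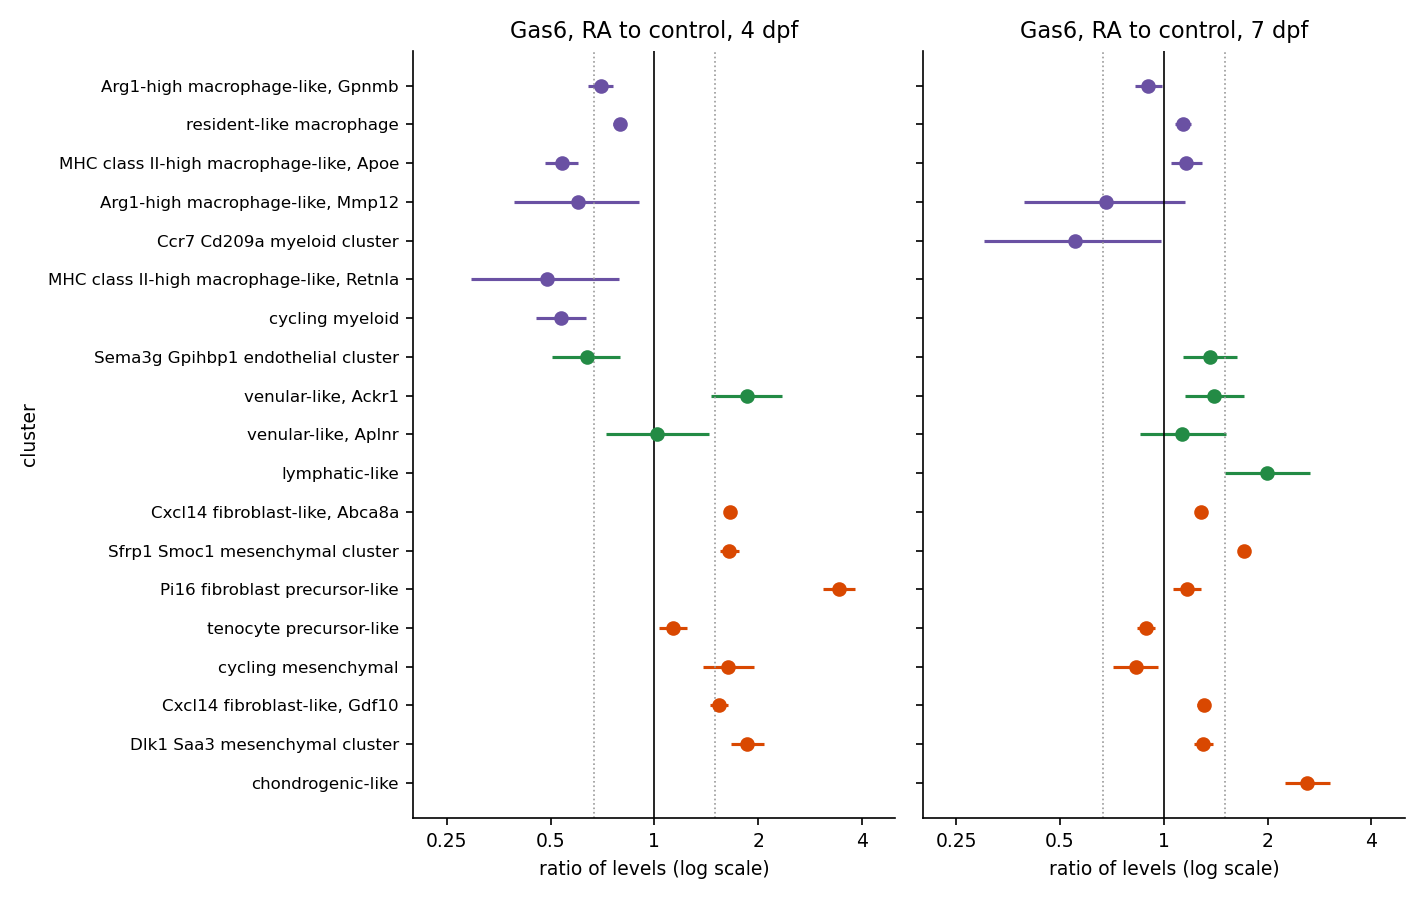
Ratio of *Gas6* CPM in RA to control (log axis) in each cluster with enough cells and UMIs at 4 and 7 dpf, with exact 95% intervals that cover counting error and dotted lines at 1.5-fold either way. At 4 dpf the mesenchymal clusters lie at 1.13 to 3.43 and the myeloid clusters at 0.488 to 0.792, while at 7 dpf both spread around 1.

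*Stab1* at 4 dpf was also lower in myeloid cells of the RA library, at 167 against 268 CPM, a ratio of 0.625 (0.608 to 0.643). It was below 1 in 8 of 8 clusters with enough UMIs and past 1.5-fold in 3. Over all 9 myeloid clusters of this comparison, 8.32% of 5766 genes went 1 way, which is harder to meet than in 8. Cluster shares alone gave 0.810 and levels alone 0.774, so neither reached 1.5-fold by itself. At 7 dpf, *Pros1* in myeloid cells was 50.9 CPM in RA_7d and 31.2 in control_7d, a ratio of 1.63 (1.5 to 1.78). It was above 1 in 6 of 6 clusters with enough UMIs and highest in resident-like macrophages at 1.92 (104 against 54.1 CPM). Over all 7 myeloid clusters of this comparison, 8.8% of 4934 genes went 1 way, which is harder to meet than in 6. *Mfge8* in myeloid cells was 14.3 against 27.3 CPM, a ratio of 0.525 (0.458 to 0.6), and the cluster farthest from 1 was that of Gpnmb macrophage-like cells, at 17.5 against 67.8 CPM, a ratio of 0.259 (0.191 to 0.344). *Mfge8* was above 1 in 2 of 5 clusters, with a median of 0.895 and a highest ratio of 1.28, and levels alone gave 0.571. *Axl* in mesenchymal cells was 169 CPM in RA_7d and 107 in control_7d, a ratio of 1.59 (1.54 to 1.63). It was above 1 in 8 of 8 clusters, where 21.3% of 10231 genes went 1 way. In 1 cluster only it was past 1.5-fold, with shares alone giving 1.22 and levels 1.29. *Mertk* and *Lrp1* were past 1.5-fold in none of the 6 comparisons of RA with control in the lineage sums.

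*Timd4* went opposite ways at the 2 times in the myeloid sums, with a ratio of RA to control of 0.447 (0.320 to 0.617) at 4 dpf and 1.94 (1.23 to 3.09) at 7 dpf, from 52 against 150 and 43 against 38 UMIs. In the Ccr7 Cd209a cluster, where its level was highest, the ratio was 0.590 and 0.716. The ratio at 7 dpf was thus below 1 within that cluster, though not past 1.5-fold. Cluster shares alone gave 0.823 at 4 dpf and 1.59 at 7 dpf, and levels alone 0.545 and 1.19. Weighted equally over clusters, the ratios were 0.842 and 1.08.

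Between 4 and 7 dpf the same sums were compared within each treatment. These comparisons use the same 4 libraries as those above and are no independent data. In control callus, 4 of 8 members were past 1.5-fold in myeloid (10.3% of all genes), 1 of 7 in endothelial (9.2%) and 3 of 8 in mesenchymal cells (18.1%). In RA callus the counts were 4 of 8 (23.7%), 1 of 7 (9.77%) and 1 of 8 (17.1%). Of these 14 ratios, 6 stayed past 1.5-fold with clusters weighted equally.

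*Axl* in myeloid cells was higher at 7 than at 4 dpf under both treatments. It was 71.3 against 38.6 CPM in control, a ratio of 1.85 (1.74 to 1.96), and 82.2 against 33.1 in RA, a ratio of 2.49 (2.31 to 2.67). In control, 7 of 8 clusters were above 1 and 4 past 1.5-fold, and resident-like macrophages had the highest ratio, 4.39 (74.7 against 17 CPM). In RA, 5 of 5 clusters with enough UMIs were past 1.5-fold, and Arg1-high macrophage-like cells with *Mmp12* had the highest ratio, 4.34 (132 against 30.5 CPM). Over all 7 myeloid clusters of the RA comparison, 10.1% of 5426 genes went 1 way, which is harder to meet than 1 way in 5. With equal cluster shares the levels gave 1.67 in control and 1.92 in RA. In mesenchymal cells of control callus *Axl* moved the other way, at 107 against 171 CPM, a ratio of 0.624 (0.603 to 0.646), with 2 of 7 clusters past 1.5-fold. In mesenchymal cells of RA callus it was 169 against 117 CPM, a ratio of 1.45 (1.39 to 1.51), with 6 of 7 clusters above 1 and 2 past 1.5-fold. Endothelial *Axl* had ratios of 2.42 (1.64 to 3.64) in control and 1.59 (1.03 to 2.52) in RA, at levels of at most 6.18 CPM. In the Sema3g Gpihbp1 cluster, macrophage RNA would carry 3.30 and the fibroblast tracers 1.09 of the 5.14 CPM of *Axl* measured over all libraries. In venular-like cells with *Ackr1* they would carry 0.283 and 1.67 of 2.99 CPM.

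*Mertk* did not share this course in myeloid cells, where the ratio of 7 to 4 dpf was 0.996 in control and 1.38 in RA. In mesenchymal cells of control callus it was 39.3 CPM at 7 dpf and 19.4 at 4 dpf, a ratio of 2.02 (1.85 to 2.21). All 7 clusters were above 1 and 5 past 1.5-fold (1.29 to 2.59), where 17.3% of 9489 genes went 1 way. Cluster shares alone gave 1.06, and the carried macrophage RNA was at most 2.46 CPM of *Mertk* in any mesenchymal cluster. In RA the ratio was 1.39, with 6 of 7 clusters above 1 and 4 past 1.5-fold. Mesenchymal cells were also a larger share of the kept cells at 7 dpf, and cell numbers in the callus were not measured. Their share of all *Mertk* UMIs went from 8.97% to 41.8% in control and from 12.7% to 45% in RA. That of myeloid cells went from 75.1% to 40.3% and from 69.6% to 27.3%.

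Mesenchymal *Gas6* was lower at 7 than at 4 dpf under both treatments. It was 207 against 352 CPM in control, a ratio of 0.588 (0.574 to 0.603), and 323 against 591 in RA, a ratio of 0.547 (0.536 to 0.558). It was below 1 in 7 of 7 clusters in each, where 17.3% of 9489 genes went 1 way in control and 13.4% of 9886 in RA. Myeloid *Gas6* in RA went from 119 to 212 CPM, a ratio of 1.79 (1.71 to 1.86), with cluster shares alone at 1.33 and levels at 1.34. Myeloid *Stab1* in control went from 268 to 167 CPM, a ratio of 0.623 (0.604 to 0.643), and was below 1 in 8 of 8 clusters with enough UMIs. Over all 9 myeloid clusters of that comparison, 4.34% of 5325 genes went 1 way, which is harder to meet than in 8. *Mfge8* in control went from 14.5 to 27.3 CPM in myeloid cells, a ratio of 1.88 (1.71 to 2.07), of which cluster shares alone gave 0.983. *Pros1* in RA went from 28.2 to 50.9 CPM, a ratio of 1.80 (1.66 to 1.96). *Timd4* had ratios of 0.402 (0.274 to 0.578) in control and 1.75 (1.14 to 2.67) in RA, and 0.718 and 0.873 within the Ccr7 Cd209a cluster. *Tyro3* and *Lrp1* were past 1.5-fold in no lineage sum with enough UMIs, in these or the comparisons of RA with control. In single clusters they were: *Tyro3* ran from 0.488 to 2.13 over 5 mesenchymal clusters in control and from 0.525 to 4.31 over 5 in RA, and *Lrp1* reached 0.63 in 1 of 7 mesenchymal clusters in control and 1.54 in 1 of 2 endothelial clusters in RA.

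Likeness between members, and with other genes, was described over 97 sums (28 clusters by library, with at least 50 cells each) by Pearson's r of log2(CPM + 1). The sums share libraries and lineages, so r is a description. *Axl* and *Lrp1* were the most alike pair of members (r = 0.80), followed by *Gas6* and *Pros1* (0.65), and *Mertk* and *Stab1*, and *Pros1* and *Mfge8* (0.62 each). *Mertk* and *Axl* had an r of 0.07. *Tyro3* and *Stab1* were the most opposed (-0.64). The genes most like each member, among 13923, were *Gna12*, *Itga9* and *Fam219a* for *Mertk* (0.83, 0.82 and 0.82), *Pik3r2*, *Mt1* and *Ptprs* for *Axl* (0.87, 0.83 and 0.83), and *Col5a2*, *Efs* and *Pappa* for *Tyro3* (0.91 each). For the ligands they were *Lrp6*, *Igf1* and *B3galnt1* for *Gas6* (0.90, 0.89 and 0.85), and *Tcf7l2*, *Jun* and *Laptm4a* for *Pros1* (0.86 each). *Timd4* was most like *Il12b*, *Nccrp1* and *Gm13546* (0.87, 0.87 and 0.86), *Stab1* like *Slc7a7*, *Rab5c* and *Elf2* (0.90, 0.88 and 0.87), *Mfge8* like *2310022B05Rik*, *Triqk* and *Lamb2* (0.92, 0.90 and 0.90), and *Lrp1* like *Dse*, *S1pr2* and *Hk2* (0.92, 0.90 and 0.89).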

How the data were processed

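The labels describe 4 scRNA-seq libraries of fracture callus, 1 per condition. The deposited matrices hold whole-number UMI counts for each gene in each barcode. Per the labels, the authors used a 3′ kit, Cell Ranger 7.0.1 and the mm10 build. Whether intronic reads were counted is not given in the sources used here. The number of calluses in a pool differs between the series description and the methods of the paper and is not printed. The members, gene lists and comparisons were chosen with earlier results of these data known.

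The study's own limits on cells were applied, namely 2000 to 7000 features, 4000 to 50000 UMIs and no more than 8% of UMIs from mitochondrial genes, which left 25479 of 34038 barcodes. Median depth was 16094 to 17632 UMIs a cell, and 592 cells were called doublets by Scrublet in scanpy 1.11.5 and kept in the main values. Seurat 5.3.0 in R 4.3.3 integrated the libraries by canonical correlation analysis (30 dimensions) on 2000 variable genes and clustered on 15 principal components at resolution 1. Lineages and clusters were named from marker lists with a score of at least 1 (log2, pseudocount of 10 CPM), and cell types also with 3 detected markers. A cell type name was dropped where the leading genes held more markers of another cell type. Where the best lineage led the next by less than 0.35, the one with more cell type markers among the leading genes was taken. The neutrophil-like cluster was so placed as myeloid, at a score of 1.53 against 1.77 for endothelial. These thresholds were picked with the clusters in view.

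UMIs were summed per lineage or cluster and library. Lineages were tested with edgeR 4.0.16 (TMM scaling, filterByExpr). On simulated counts for myeloid against mesenchymal cells, 199 of 200 genes changed 4-fold were called, and 14 of the unchanged among 17072. Only those 200 were changed, while in the measured sums 61.8% of 17505 genes were called. Calling with so large a share of changed genes was not tested. Sums of conditions were given as CPM with exact 95% Poisson intervals, and ratios with the exact conditional interval, for genes with at least 50 UMIs over both sums. All intervals cover counting error. The split of a ratio into cluster shares and cluster levels was added after the values had been seen. Alternatives are given in the closing section. Named were the 9 members, the 3 genes most like each (of those with at least 10 CPM in a sum), and, per list group, up to 3 other genes with the widest range between lineages. Gene positions come from GENCODE M21 and promoters from RefSeq on GRCm38.p6, in which all 9 members were found.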

Additional observations from a re-analysis of the deposited data

Results flagged for a closer look

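Some ratios of a member ran in opposite directions in different lineages, times or treatments, each past 1.5-fold. None of these differences was tested, since each condition has 1 library, and the cause was not tested.

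*Axl* from 4 to 7 dpf in control callus had a ratio of 1.85 in myeloid and 2.42 in endothelial cells, but 0.624 in mesenchymal cells. *Gas6* in RA against control at 4 dpf had a ratio of 0.593 in myeloid and 1.68 in mesenchymal cells. The same gene from 4 to 7 dpf in RA callus had a ratio of 1.79 in myeloid and 0.547 in mesenchymal cells. *Timd4* in myeloid cells had a ratio of RA to control of 0.447 at 4 dpf and 1.94 at 7 dpf, and a ratio of 7 to 4 dpf of 0.402 in control and 1.75 in RA. The *Timd4* ratios rest on 38 to 150 UMIs a sum.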

How the results depend on the processing

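Members were called in 24 of 27 lineage contrasts, and in 23 to 25 under the alternatives run and with each library left out. For the list the count was 118 of 150, and 110 to 121 (115 to 119 with a library left out). *Gas6* in myeloid against mesenchymal cells fell under 1.5-fold with the looser cell filter (-0.51) and without RA_4d (-0.46). *Lrp1* in the same contrast passed it with library totals (-0.64) and without control_7d (-0.67). *Stab1* in myeloid against endothelial cells lost its call with library totals (0.57). The difference of *Timd4* between endothelial and mesenchymal cells, not called, ranged from -5.53 without RA_7d, the library with all 5 endothelial UMIs, to 0.12 without control_4d and 0.75 without control_7d. Scaling by totals moved the share of calls that were higher from 45% to 56.5% in endothelial against mesenchymal and from 46.2% to 32.6% in myeloid against endothelial cells, and the median of all genes from -0.04 to 0.18 and from -0.01 to -0.33.

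With clusters weighted equally, members past 1.5-fold between RA and control went from 10 to 1, and between 7 and 4 dpf from 14 to 6; other alternatives gave 9 to 12 and 13 to 15. The ratio of endothelial *Axl* in RA from 4 to 7 dpf turned to 0.986 under the looser filter. Among named classes of the 3 lineages, which leave out the Ccr7 Cd209a and *Myh11* clusters, that in which a member was highest was the same for 6 to 9 of the 9. The cause of these moves was not tested. Lineages were compared within libraries, but the comparisons of RA with control and of 7 with 4 dpf could not be paired, because each condition has 1 library. Low counts limit *Timd4* and *Tyro3*, and without replicates the spread between pools is unknown.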

Other observations

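Osteoclast-like, neutrophil-like and monocyte-like cells were low in *Mertk* and *Gas6*. Low *Gas6* was also found in the macrophage-like clusters with *Retnla* (6.19 to 23.7 CPM) and *Mmp12* (10.8 to 19.6). Osteoclast-like cells had 6.40 to 11.2 CPM of *Mertk* and 3.82 to 7.71 of *Gas6*, with 32.1 to 44.8 of *Axl* and 88.3 to 133 of *Lrp1*. Neutrophil-like cells had 4.02 CPM of *Mertk* in RA_4d and 15.2 in control_7d. Monocyte-like cells had 2.21 to 6.87 CPM of *Gas6*, and 20.6 to 32.4 of *Pros1*, which overlapped the range of Gpnmb macrophage-like cells (28.1 to 42.7).

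Muscle-like cells, outside the 3 lineages, had 47.1 to 63.4 CPM of *Axl* and 91.8 to 175 of *Lrp1*, with 4.45 to 10.3 of *Mertk*. Their *Gas6* was 33.1 and 45.3 CPM in control at 4 and 7 dpf, and 63.9 and 151 CPM in RA, higher in the RA library at each time.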
